A study of Mus musculus with 6 samples.

Results

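Fc gamma receptors are the proteins by which macrophages bind IgG-coated targets. The 8 genes described here were taken by name from the count table and are 8 of the 25701 genes it holds. *Fcgr1*, *Fcgr3* and *Fcgr4* encode the activating receptors and *Fcgr2b* the inhibitory one. *Fcer1g* encodes the signalling adaptor of the activating receptors, *Syk* the kinase that follows it and *Inpp5d* the lipid phosphatase SHIP1 recruited by the inhibitory receptor. *Fcgrt* encodes the neonatal receptor FcRn, which works inside the cell. All 8 passed the filter on low counts, with at least 1737 reads per gene in every library.

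The libraries came from CD11b+ cells that were bead-selected from subcutaneous TC1 tumors, a mouse lung epithelial tumor line, 24 days after injection into the flank. The sample records give lung as tissue and purified macrophages as cell type, whereas the methods describe flank tumors. All mice were MCT2 loxP/loxP; Cre+ on a C57BL/6 background, with a tamoxifen-inducible Cre (mCre-Tg) that is not limited to macrophages. The 3 MCT2 KO libraries are from mice given tamoxifen at 8 weeks of age, and the 3 MCT2 CO libraries from mice given vehicle, so deletion of *Slc16a7* (MCT2) and exposure to tamoxifen cannot be told apart. No Cre-negative mice given tamoxifen were analysed here. The paper reports larger tumors in MCT2 KO than in MCT2 CO mice at harvest, so tumor size cannot be told apart from these either. The sources do not state that each library is from 1 mouse, so the p-values measure the spread between these libraries, which may be technical in part.

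When IgG bridges a target and an activating receptor, Src family kinases phosphorylate 2 tyrosines in an immunoreceptor tyrosine-based activation motif (ITAM), SYK docks there, and engulfment, killing and cytokine release follow. Fc gamma RIIB carries an inhibitory motif (ITIM) with 1 tyrosine in its own tail, which recruits SHIP1 and raises the threshold for all of these. The balance of activating to inhibitory receptors on a macrophage is known to set how strongly it answers an antibody, and interferon-gamma and complement C5a are known to shift it.

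The coding stretches of these motifs are shown because they are the signalling sites of the adaptor and of the inhibitory receptor. Both are from the GENCODE M21 transcripts on GRCm38, 5′ to 3′, with the tyrosine codons in capitals. The search found an ITAM in *Fcer1g* and in no other member, the activating receptors themselves included. The looser ITIM pattern matched at 1 place in *Fcgr2b*, but also at 3 places in *Fcgr1* and at 1 each in *Fcgr4*, *Fcer1g* and *Fcgrt*, so a match to it does not set the inhibitory receptor apart. The ITAM of *Fcer1g* lies in codons 62 to 79 of 86, split over exons 4 and 5 of 5, within chr1:171229889-171230081 on the minus strand. The ITIM of *Fcgr2b* lies in codons 317 to 322 of 340, in exon 8 of 8, at chr1:170961071-170961088 on the minus strand.
*Fcer1g* ITAM: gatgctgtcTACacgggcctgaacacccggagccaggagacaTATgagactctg
*Fcgr2b* ITIM: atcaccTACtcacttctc

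*Fcgr3* and *Fcgr2b* are near-copies in the part that codes for the IgG-binding domains, which bears on how their reads were assigned. Over 509 aligned coding bases they were 96.5% identical, whereas every other pair of the 4 receptors was between 60.1% and 66.7% identical in its best local alignment. The longest run shared by both is 129 bases. In *Fcgr2b* it spans exons 3 and 4 within chr1:170966674-170968081, and in *Fcgr3* exons 3 and 4 within chr1:171054167-171057792, both on the minus strand of GRCm38.
*Fcgr2b* and *Fcgr3* shared run: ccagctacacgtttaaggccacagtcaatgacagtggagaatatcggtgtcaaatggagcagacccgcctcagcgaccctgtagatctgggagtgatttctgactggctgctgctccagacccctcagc
Of the distinct 50-base stretches in *Fcgr3* transcripts, 10.2% also occur in *Fcgr2b*, and 4.48% of those of *Fcgr2b* occur in *Fcgr3*. In all, 6.72% of those of *Fcgr2b* occur in some other gene. Reads that fall wholly in such stretches cannot be assigned to 1 of the pair, which leaves the values of *Fcgr3* and *Fcgr2b* uncertain. These are shares of distinct stretches in protein-coding transcripts and not of reads, so the extent is not known. The 50-base stretches of the other 6 members occur in no other gene.

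Libraries held between 24863611 and 31713704 counted reads. The targeted gene *Slc16a7* had 481, 287 and 298 reads in MCT2 CO against 196, 162 and 133 in MCT2 KO, with a log2 fold change of -1.05 and an adjusted p of 0.370 in edgeR. Levels below are in CPM, the read count scaled to a common library size after TMM normalization. On the principal components MCT2 CO replicate 3 stood apart on the first and MCT2 KO replicate 2 on the second. *Itgam*, which encodes CD11b, had 1 read over the 6 libraries. The cells were selected on this protein, so the count is not read as its level. Whether its reads were lost in counting was not tested. *C1qa*, *C1qb*, *C1qc*, *Csf1r* and the other macrophage markers were all expressed, from 115 CPM upward. Fibroblast markers were also present, at a summed 2013 to 3290 CPM in MCT2 CO and 1679 to 1789 CPM in MCT2 KO. In such bulk samples fewer cells of a type and less RNA per cell cannot be told apart.

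No member was called changed in MCT2 KO. A call needed a log2 fold change of 0.58 or more in either direction, and a Benjamini-Hochberg adjusted p of at most 0.05 over the 13485 genes in the quasi-likelihood test of edgeR. Of the 13485 genes 0 (0%) were called, the smallest adjusted p being 0.144. At an unadjusted p under 0.05, 1 of the 8 members was reached, against 1264 genes or 9.37% of all tested. DESeq2, run on every gene with a read, called 83 of the 14202 genes it gave an adjusted p (0.584%), 0 of them members. All 8 members had a positive log2 fold change, where 50.1% of all genes tested had one, and the median over all tested was near 0.

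**Figure D1:**
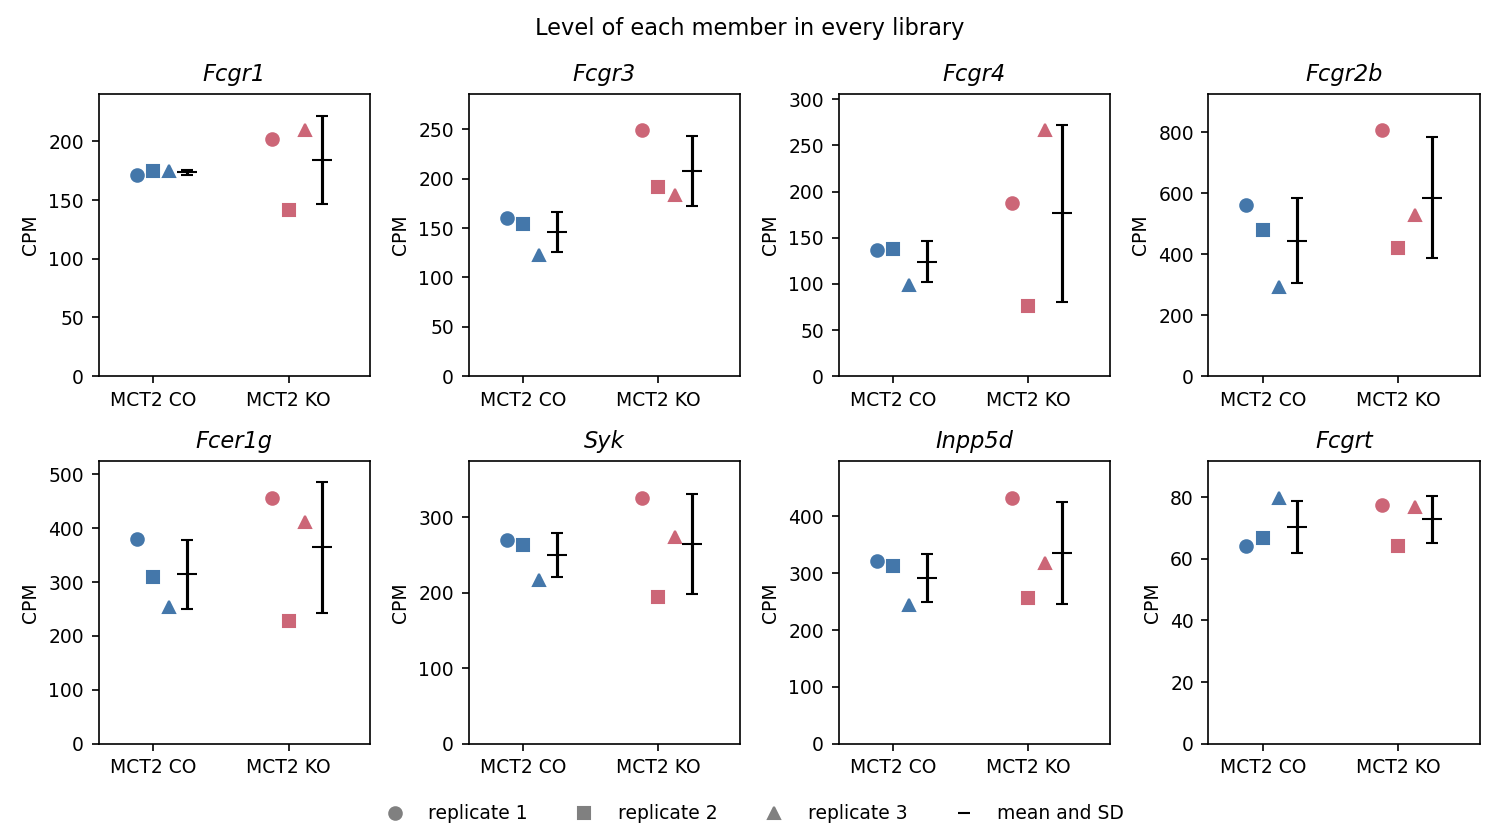
Level of each member in CPM (vertical axis, from 0) in the 3 MCT2 CO (blue) and 3 MCT2 KO (red) libraries, with symbols for the replicate number and bars for the mean and SD. *Fcgr3* is the only panel without overlap between the groups, and MCT2 KO replicate 2 (square) is the lowest library in 5 of the 8 panels.

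*Fcgr3* (ENSMUSG00000059498), the low-affinity activating receptor Fc gamma RIII, lies at chr1:171051174-171064935 on the minus strand of GRCm38. It was at 161, 154 and 123 CPM in MCT2 CO and at 249, 192 and 183 CPM in MCT2 KO. Every MCT2 KO library was above every MCT2 CO library. Such separation was seen in 1 of the 8 members, against 15.8% of all genes in either direction and 7.07% with MCT2 KO higher. The means were 146 ± 20.3 and 208 ± 35.7 CPM (SD, n = 3 each). This was a 1.43-fold higher level, or 0.51 as a log2 fold change (standard error 0.15, 95% interval 0.17 to 0.85). Its unadjusted p was 0.00863 and its adjusted p 0.426 in edgeR's quasi-likelihood test, so the difference did not pass. The exact two-sided permutation test gave p = 0.1, the smallest that 3 against 3 allows. DESeq2 gave adjusted p values of 0.0983 on all genes with a count and 0.0987 on the filtered genes.

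*Fcgr1* (ENSMUSG00000015947), the high-affinity receptor Fc gamma RI and the only one that binds single IgG molecules well, lies at chr3:96282909-96293969 on the minus strand. It was nearly constant in MCT2 CO, at 171, 175 and 175 CPM. In MCT2 KO it was at 202, 142 and 209 CPM, so that replicates 1 and 3 were above all MCT2 CO libraries and replicate 2 below all of them. The log2 fold change was 0.08 (standard error 0.14, 95% interval -0.25 to 0.42, adjusted p = 0.877 in edgeR).

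*Fcgr4* (ENSMUSG00000059089), the receptor for IgG2a and IgG2b on mouse myeloid cells, lies at chr1:171018920-171029761 on the plus strand. It was the most variable member, with a 3.53-fold range over the 6 libraries. Its levels were 137, 137 and 98.4 CPM in MCT2 CO. In MCT2 KO they were 187, 75.5 and 266 CPM, so that this group held both the lowest and the highest library. The log2 fold change of 0.50 was of the same size as that of *Fcgr3*, but its standard error was 0.39 and its 95% interval ran from -0.38 to 1.39 (adjusted p = 0.711 in edgeR).

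*Fcgr2b* (ENSMUSG00000026656), the inhibitory receptor, lies at chr1:170958617-170976547 (minus strand), in the same cluster as *Fcgr4* and *Fcgr3*. It was at 562, 481 and 292 CPM in MCT2 CO and at 807, 421 and 530 CPM in MCT2 KO. The groups overlapped, with MCT2 CO replicate 3 lowest and MCT2 KO replicate 1 highest. Means were 445 ± 139 and 586 ± 199 CPM (SD, n = 3 each). The log2 fold change was 0.40 (standard error 0.29, 95% interval -0.27 to 1.06, adjusted p = 0.696 in edgeR).

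*Fcer1g* (ENSMUSG00000058715; chr1:171229572-171234365, minus strand), the ITAM-bearing adaptor without which the activating receptors do not reach the surface, was at 380, 309 and 253 CPM in MCT2 CO. In MCT2 KO it was at 456, 227 and 411 CPM, so that replicate 2 was below and the other two above all MCT2 CO libraries. The estimate was 0.21 on the log2 scale (standard error 0.26, adjusted p = 0.818 in edgeR), and ran from 0.028 without MCT2 KO replicate 1 to 0.47 without MCT2 KO replicate 2. *Syk* (ENSMUSG00000021457; chr13:52583173-52648792, plus strand) was at 270, 263 and 217 CPM in MCT2 CO and at 326, 194 and 274 CPM in MCT2 KO. The difference was 0.08 on the log2 scale (standard error 0.18, adjusted p = 0.915 in edgeR). *Inpp5d* (ENSMUSG00000026288; chr1:87620312-87720507, plus strand) was at 321, 313 and 244 CPM in MCT2 CO and at 433, 256 and 318 CPM in MCT2 KO. Here it was 0.20 on the log2 scale (standard error 0.19, adjusted p = 0.775 in edgeR). The log2 level of *Inpp5d* minus that of *Syk* was 0.16 to 0.25 in MCT2 CO and 0.21 to 0.41 in MCT2 KO, and these groups overlapped.

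*Fcgrt* (ENSMUSG00000003420; chr7:45092990-45103851, minus strand), which rescues IgG and albumin from breakdown, was the steadiest member, with a 1.25-fold range. It was at 64.2, 66.8 and 79.8 CPM in MCT2 CO and at 77.6, 64.1 and 76.9 CPM in MCT2 KO. On the log2 scale they differed by 0.05 (standard error 0.12, 95% interval -0.22 to 0.32, adjusted p = 0.911 in edgeR). Its light chain gene *B2m* was listed at 0 in all 6 libraries. *B2m* lies wholly inside the span of *Patl2* on the opposite strand, and whether its reads were lost to that overlap was not tested.

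**Figure D2:**
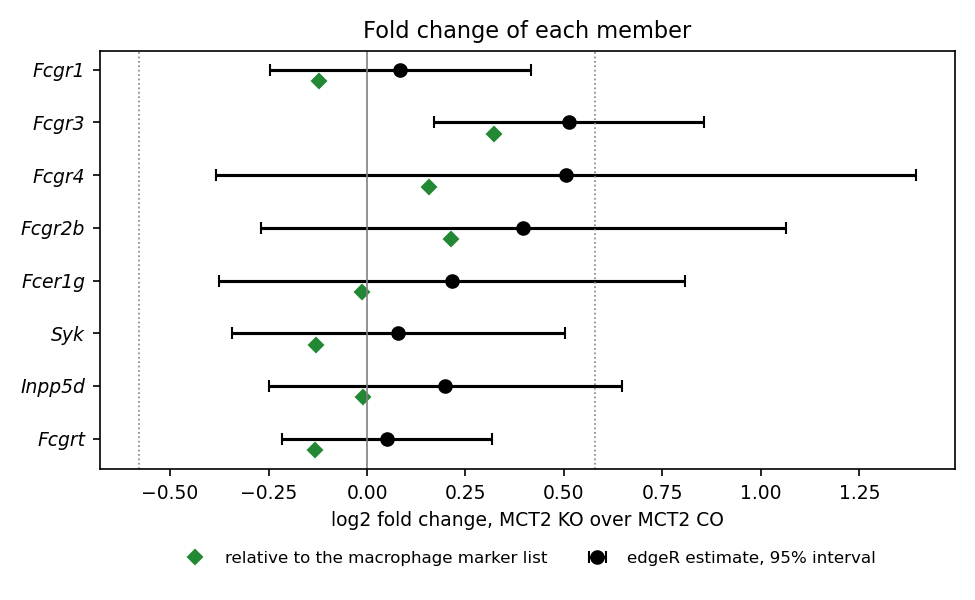
Log2 fold change of each member, MCT2 KO over MCT2 CO (horizontal axis). Black points are edgeR estimates with 95% intervals, green diamonds the group difference relative to the mean log2 CPM of the macrophage markers, and dotted lines the call threshold of 0.58 either way. The interval excludes 0 for *Fcgr3* alone, and the diamonds of *Fcgr1*, *Fcer1g*, *Syk*, *Inpp5d* and *Fcgrt* lie below 0.

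The members varied by library as much as by group. MCT2 KO replicate 2 was the lowest library for 5 of the 8 members, where it was lowest for 22.7% of all genes tested. MCT2 KO replicate 1 was the highest for 5 of 8, against 20.4% of all genes. Without MCT2 KO replicate 2, the groups of *Fcgr1*, *Fcgr3*, *Fcgr4*, *Fcer1g* and *Syk* no longer overlapped, which is 5 of 8 members against 31.7% of all genes in that comparison. In the same comparison 4 of 8 members, *Fcgr1*, *Fcgr3*, *Fcgr4* and *Fcer1g*, were at an unadjusted p under 0.05 against 11.6% of all genes, and 0 were called. With MCT2 CO replicate 3 also left out, 5 of 8 were at an unadjusted p under 0.05 against 9.25% of all genes, *Fcgrt* being the added one, and 0 were called. *Fcgr3* stayed at an unadjusted p under 0.05 in all 6 comparisons with 1 library left out. In these, 5.80% to 11.6% of all genes were at such a p in edgeR. Its groups were apart with all 6 libraries, so leaving 1 out could not make them overlap on the same CPM values.

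All 10 of 10 macrophage markers had a positive log2 fold change, with a median of 0.25, and 0 of 10 were at an unadjusted p under 0.05. Their summed level was 7140 to 10877 CPM in MCT2 CO and 6980 to 14752 CPM in MCT2 KO, highest in MCT2 KO replicate 1 and lowest in MCT2 KO replicate 2. As a mean log2 level the list was also highest in MCT2 KO replicate 1, but lowest in MCT2 CO replicate 3. In MCT2 KO replicate 3, the highest library of *Fcgr1* and *Fcgr4*, it was only 0.04 above the MCT2 CO mean. The part of this in the members' levels was not tested. Relative to the mean log2 CPM of these markers, *Fcgr3* was 0.32 higher in MCT2 KO on the log2 scale, with all 3 MCT2 KO libraries above all 3 MCT2 CO libraries. The gap was narrow, with the lowest MCT2 KO library at -1.74 and the highest MCT2 CO library at -1.77. The share of all genes whose groups are apart on this scale was not computed. On this scale the differences were 0.21 for *Fcgr2b* and 0.16 for *Fcgr4*, both with overlap, and between -0.13 and -0.0089 for the other 5 members.

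**Figure D3:**
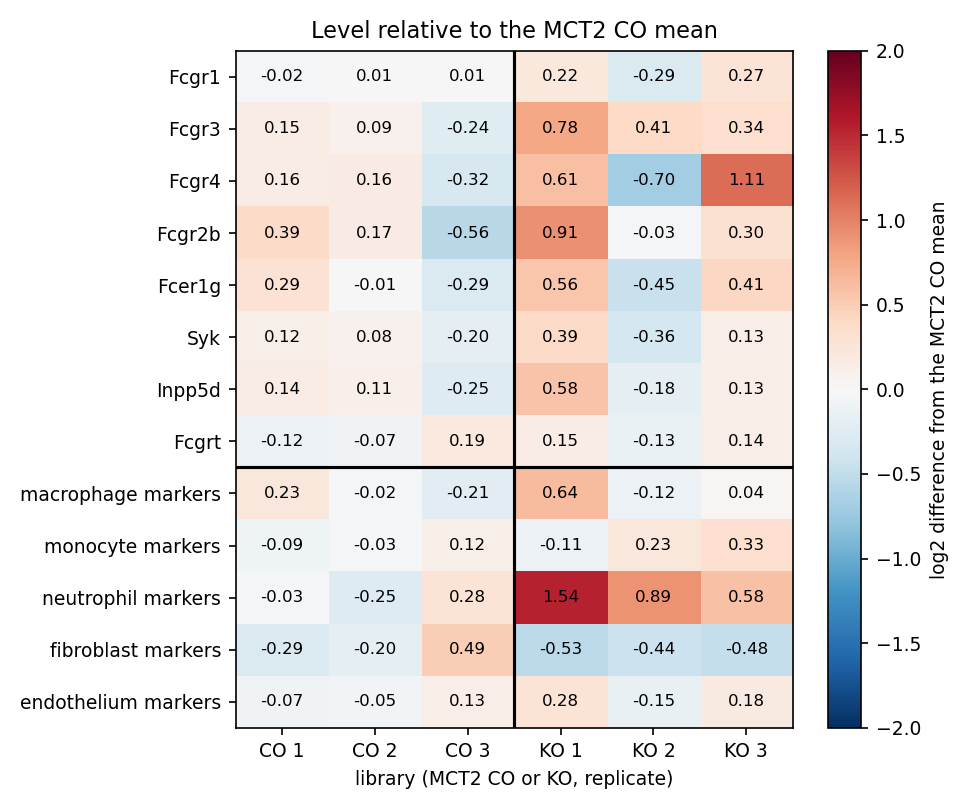
Log2 level of each member (above the line) and mean log2 level of 5 marker lists (below it) in every library, as the difference from the MCT2 CO mean; red is higher and blue lower. *Fcgr3*, *Fcgr2b*, *Fcer1g*, *Syk* and *Inpp5d* are highest in MCT2 KO replicate 1, as the macrophage markers are, and *Fcgr4* ranges from -0.70 to 1.11 between MCT2 KO replicates 2 and 3.

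The balance of activating to inhibitory receptors, the comparison the family invites, did not differ beyond its spread. It was taken per library as the mean log2 level of *Fcgr1*, *Fcgr3* and *Fcgr4* minus that of *Fcgr2b*, from CPM with 0.5 added. These values depend on gene length, so only their differences between libraries are read. The balance was -1.85, -1.63 and -1.18 in MCT2 CO and -1.93, -1.73 and -1.29 in MCT2 KO. Each group held nearly the same range, with means of -1.56 ± 0.34 and -1.65 ± 0.33 (SD, n = 3 each) and a difference of -0.09. Taken alone against *Fcgr2b*, *Fcgr1* differed by -0.33 between the groups, *Fcgr3* by 0.11 and *Fcgr4* by -0.06. Without MCT2 CO replicate 3 the balance differed by 0.09 and without MCT2 KO replicate 1 by 0.05, the only 2 single libraries whose removal turned the sign. Without MCT2 CO replicate 3 and MCT2 KO replicate 2 together it differed by 0.13.

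**Figure D4:**
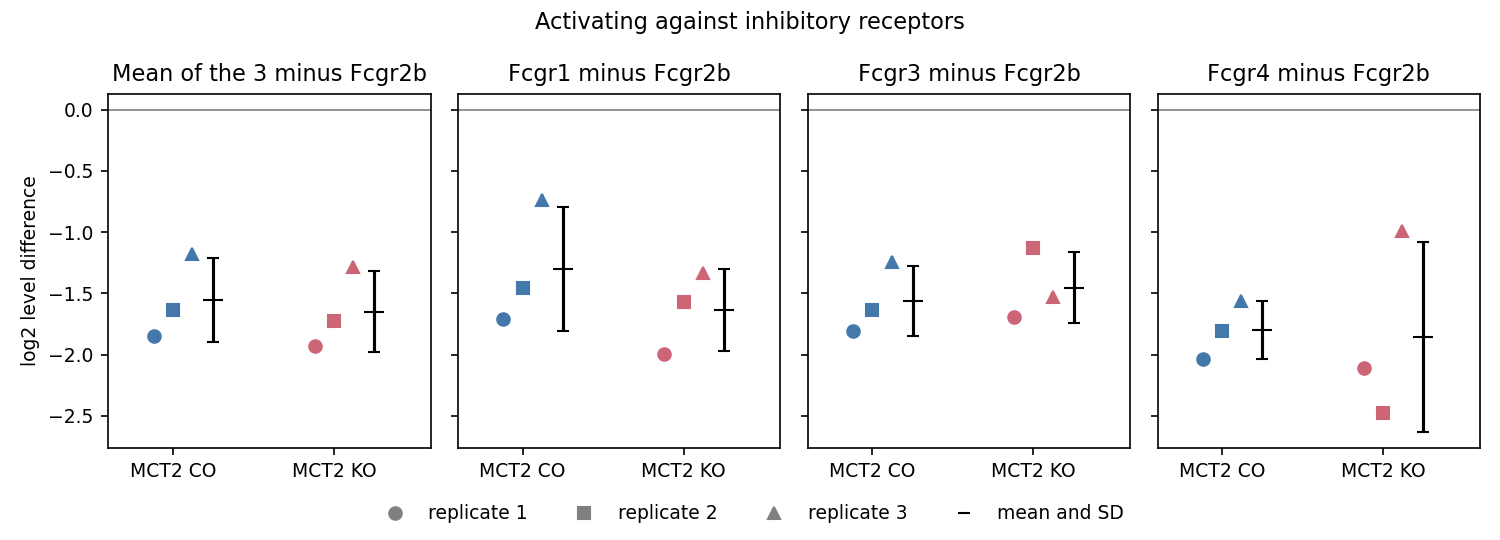
Log2 level of the activating receptors minus that of *Fcgr2b* (vertical axis) in each library, for the mean of *Fcgr1*, *Fcgr3* and *Fcgr4* and for each alone, with mean and SD bars. The groups overlap in all 4 panels, and *Fcgr4* spreads widest in MCT2 KO, from -2.47 in replicate 2 to -0.99 in replicate 3.

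Per kilobase of exon, *Fcer1g* was the most abundant member, at a mean of 388 CPM per kb over the 6 libraries, and its lowest library was above the highest of any other member. *Fcgr4* (120), *Fcgr3* (102), *Fcgr2b* (89.0) and *Fcgr1* (69.1 CPM per kb) came next, each overlapping its neighbour in range. *Inpp5d* (41.3), *Fcgrt* (34.0) and *Syk* (27.5 CPM per kb) were lowest, and neighbours overlapped there too. The exon lengths join the exons of every annotated transcript, 5790 bases for *Fcgr2b* and 1256 for *Fcgr4*. The protein-coding transcripts of *Fcgr2b* hold only 3708 distinct 50-base stretches, and those of *Fcgr4* 1207. The order of the receptors therefore depends on the length used. The deposited gene lengths are whole spans, so reads from introns may be included and would count most in long genes such as *Syk* and *Inpp5d*.

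On the same per-kilobase scale, the shares of *Fcgr4* and *Fcgr3* among the 4 receptors varied less in MCT2 CO than in MCT2 KO, whereas that of *Fcgr1* varied more in MCT2 CO. *Fcgr4* held 29.9%, 31.3% and 29.3% of their summed level in MCT2 CO and 29.2%, 20.2% and 43.3% in MCT2 KO. *Fcgr3* held 25.4%, 25.5% and 26.5% in MCT2 CO and 28.1%, 37.1% and 21.5% in MCT2 KO. MCT2 KO replicate 2 was thus richest in *Fcgr3* and poorest in *Fcgr4*, and replicate 3 the reverse. *Fcgr2b* held 23.1% ± 3.92 and 23.5% ± 4.41 in the CO and KO groups, and *Fcgr1* 20.9% ± 3.82 and 16.7% ± 1.53 (SD, n = 3 each). The size of each share depends on the exon lengths used.

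In the rest of the pathway, 99 of 115 listed genes passed the filter on low counts and 0 were called by edgeR, the smallest adjusted p being 0.380. At an unadjusted p under 0.05, 5 were higher and 2 lower in MCT2 KO, where 3.77% and 5.6% of all genes tested were. Their median log2 fold change was 0.08. DESeq2 on all genes with a count called 4 of the 115, *Fcrl6*, *Fcer2a*, *Fcmr* and *Igkc*.

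Of 13 other Fc receptors and related genes, 6 passed the filter, with a median log2 fold change of 0.47, and 1 was at an unadjusted p under 0.05. That was *Fcrl6*, an Fc receptor-like gene with 3, 7 and 6 reads in MCT2 CO and 13, 91 and 24 reads in MCT2 KO. On the log2 scale it was 2.88 higher (standard error 0.70), with an adjusted p of 0.380 in edgeR and of 0.0168 in DESeq2. Its level in MCT2 KO, a mean of 1.43 CPM, was low beside those of the receptors above. *Fcrlb* (log2 fold change 0.66) and *Fcrla* (0.27) had adjusted p values of 0.638 and 0.715 in edgeR. *Fcer2a* (CD23) and *Fcmr* (the IgM receptor), both best known from B cells, were under the filter and were singled out after their values were seen. *Fcer2a* had 10, 15 and 34 reads in MCT2 CO and 1, 2 and 1 in MCT2 KO (DESeq2 adjusted p = 0.0221). *Fcmr* had 4, 22 and 12 reads in MCT2 CO and 0 in every MCT2 KO library (DESeq2 adjusted p = 0.0152).

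Of 7 B cell markers tested, measured beside these genes, 6 had a negative log2 fold change, with a median of -0.58, and 3 were at an unadjusted p under 0.05. These 3 were lower in MCT2 KO, as 5.6% of all genes tested were at such a p in edgeR. DESeq2 called 1 of the B cell markers, against 0.584% of the genes it gave an adjusted p. Their summed level was 28.6 to 31.6 CPM in MCT2 CO and 17.4 to 32.2 CPM in MCT2 KO. Of 11 immunoglobulin constant genes, which include those of IgG heavy chains but also light chains and other heavy chain classes, 5 passed the filter. *Igkc*, the kappa light chain, was at 2.40, 4.81 and 5.91 CPM in MCT2 CO and at 2.01, 0.430 and 0.803 CPM in MCT2 KO (log2 fold change -2.04, standard error 0.55, adjusted p = 0.399 in edgeR and 0.0170 in DESeq2). *Ighd* had a lower mean too (log2 fold change -1.44, adjusted p = 0.558 in edgeR). *Ighg2b*, a heavy chain of IgG, had a log2 fold change of 1.55 (adjusted p = 0.582), from 1.13 to 3.77 CPM in MCT2 CO and 0.952 to 12.2 CPM in MCT2 KO. How far B cells or plasma cells in the preparations account for these reads was not tested.

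Of 8 listed receptors and adaptors that share the ITAM system, 6 passed the filter, 5 with a positive log2 fold change and a median of 0.26. *Clec4n* (Dectin-2), a fungal glycan receptor that signals through the *Fcer1g* adaptor, was at 179, 117 and 89.6 CPM in MCT2 CO and at 245, 261 and 137 CPM in MCT2 KO. The groups overlapped, with a log2 fold change of 0.74 (standard error 0.30, unadjusted p = 0.0382 and adjusted p = 0.513 in edgeR). *Clec4e* (Mincle) was at 41.9, 37.4 and 38.9 CPM in MCT2 CO and at 46.0, 49.7 and 42.1 CPM in MCT2 KO (log2 fold change 0.22, adjusted p = 0.528 in edgeR). *Clec4d*, its partner, had a log2 fold change of 0.40 (adjusted p = 0.648).

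The signalling genes downstream stood near the median of all genes. Of 6 Src family kinases, which phosphorylate the ITAM, 3 were higher and 3 lower, with a median log2 fold change of 0.01 and 0 at an unadjusted p under 0.05. *Fgr* had the largest estimate, 0.40 (adjusted p = 0.630 in edgeR), while *Yes1* was at -0.16 and *Src* at -0.05. Of 25 proximal signalling genes tested, 13 were higher and 12 lower, with a median of 0.02 and 0 at an unadjusted p under 0.05. They were led by *Pik3cg* (0.41, adjusted p = 0.572), *Btk* (0.24) and *Gab2* (0.30). Of 10 phosphatases, docking proteins and ligases that restrain ITAM signalling, 7 were higher and 3 lower, with a median of 0.06 and 0 at an unadjusted p under 0.05. *Dok2* (0.50), *Ptpn6*, which encodes the phosphatase SHP-1 (0.32), and *Inppl1*, which encodes SHIP2 (-0.16), had adjusted p values from 0.582 to 0.638 in edgeR.

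Of 32 genes of the phagocytic cup, the actin-rich pocket that closes around a target, 22 were higher and 10 lower, with a median log2 fold change of 0.06. *Prkce*, a protein kinase C known to act at the cup, was at 26.4, 29.2 and 33.8 CPM in MCT2 CO and at 23.2, 22.5 and 25.2 CPM in MCT2 KO. Every MCT2 KO library was below every MCT2 CO library, with a log2 fold change of -0.33 (standard error 0.11, unadjusted p = 0.0181 and adjusted p = 0.450 in edgeR). *Cfl1*, which encodes the actin-severing protein cofilin, was at 109, 118 and 103 CPM in MCT2 CO and at 134, 129 and 121 CPM in MCT2 KO. It was higher in every MCT2 KO library (log2 fold change 0.22, standard error 0.08, adjusted p = 0.497 in edgeR). *Gsn* (gelsolin), another actin-severing protein, had a log2 fold change of 0.21 (adjusted p = 0.551).

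Among 9 genes known to regulate Fc gamma receptor expression, 8 had a positive log2 fold change, with a median of 0.20, and 1 was at an unadjusted p under 0.05. *C5ar1*, the C5a receptor, whose engagement is known to raise activating over inhibitory receptors, was at 76.8, 61.1 and 67.3 CPM in MCT2 CO and at 91.8, 101 and 72.1 CPM in MCT2 KO. The groups overlapped, with a log2 fold change of 0.37 (standard error 0.14, unadjusted p = 0.0295 and adjusted p = 0.497 in edgeR). *Irf1*, an interferon-gamma-induced transcription factor, was at 110, 195 and 118 CPM in MCT2 CO and at 145, 121 and 328 CPM in MCT2 KO. MCT2 KO replicate 3 was its highest library, as it was for *Fcgr1* and *Fcgr4*, and it did not pass the test (adjusted p = 0.716 in edgeR).

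The promoters of *Fcgr1* and *Fcgr4* are shown because these receptors were the ones highest in that library and because interferon-gamma is a known inducer of Fc gamma RI and RIV. They were thus chosen after the values were seen. For *Fcgr1* the lead was small, at 209 CPM against 202 CPM in MCT2 KO replicate 1. That library was the highest for 12.2% of all genes tested, and a part of interferon in these levels was not tested. The promoters run from 250 bases before to 50 bases after the transcription start, from RefSeq on GRCm38.p6, with motif matches in capitals. The *Fcgr1* promoter is chr3:96293920-96294219 on the minus strand and the *Fcgr4* promoter chr1:171018676-171018975 on the plus strand.
*Fcgr1* promoter: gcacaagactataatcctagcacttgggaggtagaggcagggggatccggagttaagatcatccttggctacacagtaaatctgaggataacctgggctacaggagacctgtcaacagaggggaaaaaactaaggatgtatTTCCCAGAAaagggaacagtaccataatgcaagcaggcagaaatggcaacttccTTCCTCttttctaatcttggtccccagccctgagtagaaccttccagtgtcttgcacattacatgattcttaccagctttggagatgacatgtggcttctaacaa
*Fcgr4* promoter: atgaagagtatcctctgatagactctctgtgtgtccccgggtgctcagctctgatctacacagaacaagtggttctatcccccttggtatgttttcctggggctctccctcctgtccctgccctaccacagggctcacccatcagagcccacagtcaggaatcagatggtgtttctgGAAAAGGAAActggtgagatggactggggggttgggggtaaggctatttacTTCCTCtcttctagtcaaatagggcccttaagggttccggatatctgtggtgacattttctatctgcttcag
All 8 members had a promoter in the table, and 6 motifs were searched on both strands. The interferon-gamma activated site, TTCNNNGAA, was found in *Fcgr1* alone, at positions -109 to -101, and in 9.55% of all genes' promoters. The interferon-stimulated element, GAAA and GAAA with any 2 bases between, was found in *Fcgr4* alone, at -73 to -64, and in 3.99% of all. A composite site for ETS factors and IRFs, GGAA and GAAA with any 2 bases between, was found in *Fcgr2b* alone, at -35 to -26, and in 3.16% of all. The core of the PU.1 site, GAGGAA, was found in *Fcgr1*, *Fcgr3*, *Fcgr4*, *Syk* and *Inpp5d*, 5 of 8 members, and in 31.3% of all genes. The C/EBP motif TTGCNNAAT (2.77% of all) and the AP-1 motif TGANTCA (8.97% of all) were found in 0 members. A match says only that these letters stand in the window.

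Beside each receptor, the 3 protein-coding genes of at least 10 CPM with the most similar levels were taken, by Pearson's r of log2 CPM over the 6 libraries, among 9494 candidates. They describe the shared ups and downs of these 6 libraries. As the highest of 9494 candidates over only 6 libraries, such r values are high by selection. How high they would be for unrelated genes was not tested. For *Fcgr2b* they were *Rab32*, *Tgfbi* and *Cbl* (r = 0.997, 0.991 and 0.990). For *Fcgr3* they were *Rab3d*, *Ttc5* and *Nceh1* (r = 0.994, 0.993 and 0.992). For *Fcgr4* they were *Pecam1*, *Cdc42se1* and *Usp6nl* (r = 0.998, 0.991 and 0.985), and for *Fcgr1* they were *Rinl*, *Tmem127* and *Mxd1* (r = 0.992, 0.991 and 0.980). The 4 sets share no gene.

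Other cells that carry these receptors could be present in a CD11b selection, and their markers were measured beside the members. Over all genes tested, 3.77% were higher and 5.6% lower at an unadjusted p under 0.05 in edgeR. DESeq2 called 0.584% of the genes it gave an adjusted p. Of 8 neutrophil markers tested, 7 had a positive log2 fold change, with a median of 1.19, and 5 were at an unadjusted p under 0.05. DESeq2 called 5 neutrophil markers, *S100a8*, *S100a9*, *Retnlg*, *Mmp8* and *Ngp*, with adjusted p values from 0.000366 to 0.0320, while edgeR called 0 of them. The 8 neutrophil markers tested summed to 110 to 126 CPM in MCT2 CO and 114 to 196 CPM in MCT2 KO. Of these sums, *Csf3r*, which DESeq2 did not call, held a mean of 86.1 CPM in MCT2 CO and 92.9 CPM in MCT2 KO. *S100a9* was at 3.50, 2.58 and 4.18 CPM in MCT2 CO and at 20.9, 9.12 and 7.63 CPM in MCT2 KO, whereas the defining marker *Ly6g* had 8 reads over all libraries. Of 7 monocyte markers 4 were higher, with a median of 0.02, 2 at an unadjusted p under 0.05 (*F13a1* and *Chil3*, both higher), 0 called by DESeq2, and summed levels of 358 to 461 and 378 to 496 CPM. Of 6 NK cell markers, whose cells carry Fc gamma RIII, 5 were lower, with a median of -0.60 and summed levels of 19.6 to 30.9 and 20.2 to 36.5 CPM. At an unadjusted p under 0.05, 2 NK cell markers were lower and 1 higher, and DESeq2 called *Gzma* (adjusted p = 0.00718), which was lower. All 5 fibroblast markers were lower, with a median of -0.62, and 2 of them, *Col3a1* and *Dcn*, were at an unadjusted p under 0.05 and were called by DESeq2 (adjusted p = 0.0403 and 0.0451). Of 6 T cell markers 5 were higher and of 6 dendritic cell markers 5 were lower, with medians of 0.25 and -0.35. T cell markers summed to 33.0 to 48.1 CPM in MCT2 CO and to 9.09 to 68.4 CPM in MCT2 KO, dendritic cell markers to 27.7 to 35.9 and 19.6 to 31.4 CPM. Of 4 mast cell and basophil markers tested 2 were higher, as were 2 of 4 endothelial markers, with medians of 0.0019 and 0.11. DESeq2 called *Mcpt4*, a mast cell protease under the filter, as lower (adjusted p = 0.0170). Mast cell and basophil markers summed to 57.5 to 72.5 and 51.4 to 62.2 CPM, and endothelial markers to 87.6 to 94.7 and 75.5 to 130 CPM. The part of any of these cells in the receptors' levels was not tested.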

How the data were processed

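CD11b+ tumor cells were profiled by stranded poly-A RNA-seq in 3 MCT2 CO and 3 MCT2 KO libraries. Per the submitters' processing notes, reads were checked with FastQC 0.12.0 and MultiQC 1.28, aligned to GRCm38 with STAR 2.7.11b, and counted with featureCounts 2.1.1; DESeq2 1.18.1 was also listed. The authors deposited raw read counts per gene, without normalization or pooling; the annotation and strand setting are not given in the sources used here. The deposited lengths are whole gene spans. GENCODE M21 (GRCm38) shares the span length of 98.1% of genes but the start of only 2.21%. The deposited starts of most genes thus differ from it, and the reason was not tested. Positions printed here are those of GENCODE M21. No member overlaps another listed gene. Of 25701 genes, 3973 came without a symbol and were given one looked up by identifier, except 35 that kept the identifier.

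Counts were filtered with filterByExpr (minimum count 10, total 15), scaled by TMM and tested with edgeR 4.0.16 (quasi-likelihood) in R 4.3.3; limma 3.58.1 and DESeq2 1.42.0 served as alternatives. The members and lists were chosen with earlier results of these data known. Named pathway genes are the 3 of each list with the smallest unadjusted p, except 1 that is not reported here. The scripts were tested on simulated counts. Replicates of a group differed by more than sampling noise. Same-numbered libraries were not treated as pairs in the main test. Totals of 24863611 to 31713704 reads leave small counting error for the members, and intervals cover these libraries only. Alternatives were other tools, scalings and filters, a replicate block, and each library left out. Sequences were handled in Python 3.11.15 with Biopython 1.88.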

Additional observations from a re-analysis of the deposited data

How the results depend on the processing

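The 0 members called stayed 0 under every alternative run. Over all genes, DESeq2 called 79 among the filtered genes and 83 without the filter, where edgeR called 2; with 1 library left out the count was 0 to 2. With MCT2 CO replicate 3 and MCT2 KO replicate 2 both left out, an alternative chosen after seeing the data, 10 genes were called and 5 members were at an unadjusted p under 0.05. With 1 library left out, members at an unadjusted p under 0.05 numbered 1 to 4 and those without overlap 1 to 5, the upper value of each without MCT2 KO replicate 2. The cause was not tested.

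*Fcgr3* kept a positive log2 fold change in all alternatives, from 0.37 to 0.60 over those with a test and 0.32 relative to the macrophage markers, with adjusted p values from 0.0983 to 0.819; over those with a test *Fcgr4* ranged from 0.09 to 0.87, *Fcgr2b* from 0.10 to 0.60 and *Fcer1g* from 0.028 to 0.47. Leaving out 1 library turned the sign of *Fcgr1* (-0.0098 to 0.24), *Syk* (-0.090 to 0.26), *Inpp5d* (-0.019 to 0.36) and *Fcgrt* (-0.0086 to 0.15). Relative to the macrophage markers, the sign turned for *Fcgr1* (-0.12), *Fcer1g* (-0.013), *Syk* (-0.13), *Inpp5d* (-0.0089) and *Fcgrt* (-0.13). In all, 10 of the 128 alternative fold changes turned sign. The activating minus inhibitory difference ranged from -0.27 to 0.09 with 1 library left out and was 0.13 with MCT2 CO replicate 3 and MCT2 KO replicate 2 left out. Deviations of same-numbered libraries correlated at 0.26, -0.26 and -0.18, and groups of 3 are too small for this to show or exclude pairing. With the replicate block 0 genes and 0 members were called, and 1 member was at an unadjusted p under 0.05. The activating minus inhibitory difference was -0.09 there too, which is fixed because each block holds 1 library of each group. Groups of 3 leave a single library decisive for most members, and depth does not limit their values.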
